A study of Saccharomyces cerevisiae with 6 samples.

Results

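Transcript levels are described here for untreated, exponentially growing budding yeast, Saccharomyces cerevisiae. Of the 6 libraries of the series, the 2 labelled control were used, and the 4 libraries of starved cells were not used here. Of 7127 annotated features in each file, 5 that lie in the ribosomal DNA were left out, YLR154W-A, YLR154W-B, YLR154W-C, YLR154W-E and YLR154W-F, and the other 7122 were ranked. The strain was BY4741, a haploid of mating type a with deletions in its HIS3, LEU2, MET17 and URA3 genes. Cultures had reached an OD600 of about 1 in synthetic complete medium, which supplies glucose and amino acids, and stayed in growth for 1 h more with no treatment. RNA was treated with DNase and made into libraries with the KAPA mRNA HyperPrep kit, a stranded method that starts from poly(A) RNA. Nothing in the labels says whether the 2 libraries came from separate cultures beyond a batch number, 1 for each library, so the spread between them may be technical and cannot be told apart from the batch.

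Fast growth in glucose medium places its greatest demand on 2 activities, making ribosomes and fermenting glucose. Ribosomal protein genes and glycolytic genes are known for their high transcription in such cells, many of them under the activator Rap1, and their coding sequences are known for a narrow choice of codons read by abundant tRNAs. Assembly factors in the nucleolus and chaperones at the ribosome's exit tunnel complete the pathway from gene to folded protein.

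Levels are given as normalised reads per kb, the estimated reads per kb of annotated length per 1000000 reads outside the rDNA features, and as TPM where stated. The libraries held 425919 and 418010 reads, of which the rDNA features took 22.2% (95% Wilson interval 22.1 to 22.3) and 28.2% (28.0 to 28.3). The remaining 331464 and 300273 reads lay on 4755 and 4440 features, and 1338 and 1192 features held 10 or more. A feature without reads could have a share of up to 0.000905% in library 1 and 0.000999% in library 2 (3 reads). Intervals and this floor cover counting error only, since no molecular identifiers were used.

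The most abundant features did not carry the names of well-known genes but lay on the opposite strand of them. A feature was paired when no less than 50% of it and no fewer than 100 of its bases faced a single annotated gene, provided that this gene codes for a protein. This gave 412 paired features opposite 395 genes, and 374 of these features are absent from the reference annotation. Paired features took 79.0% (78.9 to 79.1) of reads outside the rDNA in library 1 and 79.2% (79.0 to 79.3) in library 2. They made up 18 of the 20 highest features by normalised reads per kb and 88 of the 100 highest. Below, a gene named with a level was read through the feature opposite it unless its own identifier is named. Most genes have no such feature, so the description covers 395 genes and leaves the others unread. The strand setting of the quantifier is not given in the sources used here, and its part in this pattern was not tested.

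Short stretches of the genes with the highest features are printed here with those of 2 genes whose features were the lowest that still held 10 or more reads in both libraries. Each stretch is on the coding strand of the gene, from the R64 reference, and lies within the region covered by the opposite feature. Capitals mark preferred codons, the commonest codon for each amino acid among ribosomal protein genes. The stretches lie at chrXI:164020-164109 (GPM1, minus strand), chrI:72326-72415 (CDC19, plus), chrXII:283185-283274 (RPL10, plus), chrXII:704607-704696 (RSO55, minus) and chrVII:1075721-1075810 (MAL11, minus).
GPM1: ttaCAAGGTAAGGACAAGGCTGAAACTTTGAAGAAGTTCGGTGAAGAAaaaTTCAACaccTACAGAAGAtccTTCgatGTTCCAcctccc
CDC19: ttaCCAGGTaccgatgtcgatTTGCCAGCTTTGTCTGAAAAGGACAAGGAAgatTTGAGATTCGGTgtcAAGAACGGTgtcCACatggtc
RPL10: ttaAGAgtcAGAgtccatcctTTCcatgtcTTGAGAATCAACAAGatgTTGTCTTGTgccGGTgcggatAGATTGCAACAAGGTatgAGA
RSO55: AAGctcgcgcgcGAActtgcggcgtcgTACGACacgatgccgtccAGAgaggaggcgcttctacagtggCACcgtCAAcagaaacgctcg
MAL11: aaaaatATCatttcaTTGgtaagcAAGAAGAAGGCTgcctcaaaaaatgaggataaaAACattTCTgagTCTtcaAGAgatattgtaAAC
In the GPM1 stretch 23 of 30 codons were preferred ones, in CDC19 20 of 29, in RPL10 18 of 28, in RSO55 7 of 28 and in MAL11 11 of 30, methionine and tryptophan codons not scored.

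Glycolysis supplied the 2 highest levels. The feature opposite GPM1, phosphoglycerate mutase, is YKL153W at chrXI:163600-164109 on the plus strand, 510 bases of which 468 lie opposite the coding exon of GPM1. It held 28375 reads in library 1 and 24855 in library 2, while the GPM1 identifier itself held 11 and 8. Its level was 165078 ± 3924 normalised reads per kb (SD, n = 2), the first rank in both libraries. The feature opposite CDC19, pyruvate kinase, which makes the final ATP of glycolysis, is YAL037C-B at chrI:72326-73300 on the minus strand. It took more reads than any other feature, 38715 and 32380, or 11.7% and 10.8% of those outside the rDNA, against 14 and 13 reads under the CDC19 identifier. Being 975 bases long, it ranked second by length-scaled level, with 115198 ± 6502 normalised reads per kb. PGK1, phosphoglycerate kinase, had 12766 and 11828 reads under its opposite feature and 60112 ± 957 normalised reads per kb. The values of GPM1 in both libraries lay above both of CDC19, and those of CDC19 above both of PGK1. These 3 were the whole of the glycolysis and fermentation list that could be read, 3 of 23 genes, and took 24.1% (23.9 to 24.2) and 23.0% (22.8 to 23.2) of reads.

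Ribosomal proteins filled 13 of the 20 highest places although only 16 of the 138 genes of their list had an opposite feature. RPL10, a large subunit protein that joins late in assembly, had 15387 and 13491 reads and a level of 107979 ± 2494 normalised reads per kb. RPL28, the protein altered in mutants that resist cycloheximide, had 15641 and 12498 reads and 103508 ± 9173 normalised reads per kb. The order of these genes changed between the libraries. RPS2 of the small subunit had 6228 and 5554 reads under a feature of 231 bases, a level of 80705 ± 896 normalised reads per kb. RPL33A had 71155 ± 1920, RPL36B 64012 ± 3210, RPL8B 60811 ± 2548 and RPP0, the base of the ribosomal stalk, 54891 ± 1935 normalised reads per kb. RPL39 and RPL43A stood at 47184 ± 4023 and 46580 ± 1393 normalised reads per kb, with overlapping values in the libraries. RPL22A, RPL12B and RPL7B, between 34474 and 35505 normalised reads per kb, overlapped too. RPL12A and RPL12B are near-identical copies between which the quantifier divided the reads, so their separate levels are uncertain. RPL33A, RPL36B, RPL8B, RPL43A, RPL22A and RPL7B carry a copy letter too, and no sister copy had a paired feature mainly opposite coding sequence. Their levels may include reads of a sister copy, which was not tested. The 16 features together took 28.7% (28.5 to 28.8) and 28.9% (28.8 to 29.1) of reads, and their median level was 46882 normalised reads per kb, while over all paired features the median was 619.

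**Figure D1:**
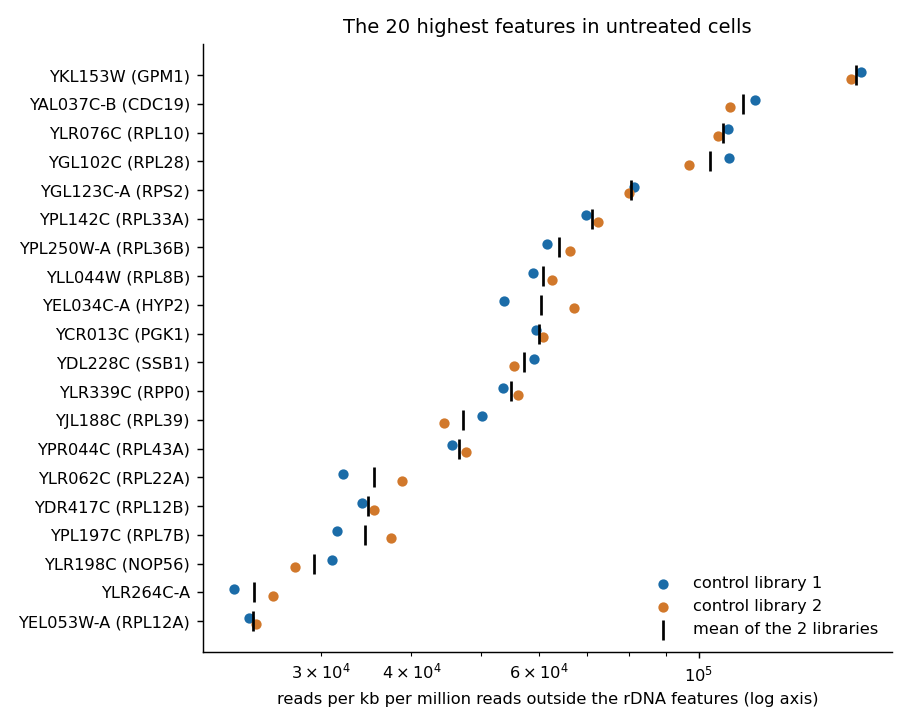
The 20 features highest by normalised reads per kb (log axis) in control libraries 1 and 2, each named with the gene opposite it in brackets; points are libraries and black ticks their mean. GPM1 stands alone at 165078, and the points of a feature lie within 0.32 log2 units of each other.

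Of the 16 ribosomal protein features, 3 ranked below the 20 highest, those opposite RPS27A, RPL36A and RPL13B. The RPL13B feature, YMR141W-A at chrXIII:550911-551135, lies wholly opposite the intron of that gene at chrXIII:550802-551203 and held 26 and 20 reads, a level of 322 ± 37.2 normalised reads per kb. The RPL36A feature has 298 of its 387 bases opposite the intron and 16 opposite coding sequence, and held 78 and 67 reads, a level of 592 ± 22.3 normalised reads per kb. The feature of the sister copy RPL36B has 284 of 288 bases opposite coding sequence and held 5894 and 5732 reads, with 2 possible places in its window, as have the features of RPL8B, RPL43A and PGK1. The features opposite RPL28, RPL33A, RPL22A and RPL7B, all genes with introns, lay mainly opposite coding sequence as well and ranked among the 20 highest. RPL39 was mixed, with 150 bases opposite coding sequence and 123 opposite its intron. RPS27A does not follow this split: its feature of 117 bases lies wholly opposite coding sequence and held 146 and 106 reads, 3391 ± 529 normalised reads per kb, but an open reading frame of its length fits 3 places in the searched window, so its position is uncertain. This split by intron was looked for after the values were seen, and no test was made of it.

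HAC1, the transcription factor of the unfolded protein response, has an intron that is removed by the enzyme Ire1 in stressed cells and stays in the message otherwise. Of the 102 bases of its opposite feature 78 lay in that intron and 24 in coding sequence, with 217 and 178 reads and a level of 6115 ± 429 normalised reads per kb. This level stood above those of the features in the introns of RPL13B and RPL36A in both libraries. The place of the HAC1 feature is also 1 of 3 possible in its window.

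Ribosome assembly was read through more genes than any other list except the ribosomal proteins. Of the 120 ribosome assembly genes 13 had an opposite feature, and they took 3.86% (3.80 to 3.93) and 4.17% (4.10 to 4.25) of reads. NOP56, a core protein of the particles that methylate ribosomal RNA, led with 3707 and 2980 reads and 29317 ± 2474 normalised reads per kb. NSR1, a nucleolar RNA-binding protein, had 17089 ± 1636 and RRP14, needed for both subunits, 8866 ± 1147 normalised reads per kb. The lowest of the list was BUD23, a methyltransferase of 18S ribosomal RNA, with 50 reads in each library. RPC19 and RPC53, subunits of the polymerases that make ribosomal and transfer RNA, had 6667 ± 231 and 2041 ± 254 normalised reads per kb, and TFC1, of a transcription factor for tRNA genes, 140 ± 15.1.

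Translation was read through few genes. SUI3, the beta subunit of initiation factor eIF2, was the only 1 of 42 translation factors paired by the rule, with 1824 and 1517 reads and 13532 ± 817 normalised reads per kb. The feature YEL034C-A lies opposite HYP2, which encodes the elongation factor eIF5A, and opposite a second gene, so it was not paired. It held 10738 and 12168 reads and ranked ninth by level, with 60463 ± 9531 normalised reads per kb, the widest spread among the 20 highest. Aminoacyl-tRNA synthetases, which charge tRNAs, were read through ILS1 at 11605 ± 1173, GLN4 at 7257 ± 1354 and MES1 at 1563 ± 136 normalised reads per kb.

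The chaperone list was read through 7 of 36 genes and took 5.11% (5.03 to 5.18) and 5.34% (5.26 to 5.42) of reads. SSB1, the Hsp70 that binds nascent chains on the ribosome, accounted for most of them, with 12572 and 10714 reads against 5 and 2 under its own identifier, and had 57328 ± 2476 normalised reads per kb. SSZ1, a member of the ribosome-associated complex that works with Ssb, had 15526 ± 611 normalised reads per kb. SSA1, the general cytosolic Hsp70, had 1592 and 2647 reads and 10508 ± 4378 normalised reads per kb. It was 1 of the features that differed most between the libraries. SSB1 and SSA1 belong to a family of similar genes, and whether their features also took reads of relatives was not tested. The other 4, CPR6, a cyclophilin that works with Hsp90, and CCT8, CCT2 and CCT6, subunits of the ring that folds actin and tubulin, lay between 1676 and 3471 normalised reads per kb.

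Growth of the surface and of the compartments was read through a few genes each. GAS1, which elongates cell wall glucan, had 788 and 858 reads under a feature of 195 bases, 13422 ± 1741 normalised reads per kb. CTS1, the chitinase that separates mother and daughter, had 238 and 326 reads and 6680 ± 1926 normalised reads per kb, and DSE3, made in daughter cells, 651 ± 83.9. The places of the GAS1 and CTS1 features are each 1 of 4 possible in their windows and so uncertain. In bulk RNA, fewer cells that make such a transcript and less of it in each cell cannot be told apart. VMA4, a subunit of the proton pump of the vacuole, had 12954 ± 672 normalised reads per kb, but VMA9 of the same pump had 173 ± 16.4, at a feature with 171 of its 393 bases opposite coding sequence. In the secretory pathway YIP3, a vesicle protein, had 4923 ± 1079, OST2, of the enzyme that glycosylates proteins, 4221 ± 509, and SEC61, the channel into the endoplasmic reticulum, 3665 ± 632 normalised reads per kb. The 8 secretory features together took 0.74% of reads in each library.

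Metabolic lists outside glycolysis had small shares. IDH2, a subunit of isocitrate dehydrogenase of the citric acid cycle, was the only respiration gene of 54 with an opposite feature and had 786 and 827 reads, 7493 ± 792 normalised reads per kb. RNR2, a subunit of ribonucleotide reductase, had 5036 ± 664 and CDC21, thymidylate synthase, 515 ± 36.0 normalised reads per kb. Amino acid synthesis was read through 5 of 70 genes, and PRO3 of the proline pathway led with 3202 ± 18.1 normalised reads per kb, followed by LEU9 with 1976 ± 171 and TRP1 with 1577 ± 30.2. MET28 and MET2, of sulfur metabolism, had 474 ± 36.8 and 443 ± 206 normalised reads per kb. The histidine permease HIP1 had 2543 ± 239, the amino acid permease GNP1 1768 ± 37.4 and the copper transporter CTR1 470 ± 7.06 normalised reads per kb. ERG27 of ergosterol synthesis, PSD1, which makes phosphatidylethanolamine, and SCS7, a sphingolipid hydroxylase, lay between 1205 and 2202 normalised reads per kb. SKP1, of ubiquitin ligases, had 4933 ± 135 and NAP1, a histone chaperone, 3303 ± 208 normalised reads per kb. No feature lay opposite a gene of the cytoskeleton or redox defence lists.

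Together 78 listed features took 66.5% of reads in each library, and the 334 paired features outside the lists took 12.5% and 12.7%. Among the latter, CAF20, an inhibitor of cap-dependent initiation, had 14964 ± 1013, LHP1, the La protein that protects new transcripts of RNA polymerase III, 11574 ± 495, and GND1, of the pentose phosphate pathway, 8795 ± 1403 normalised reads per kb. These 3 were picked for their values, outside the naming rule.

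**Figure D2:**
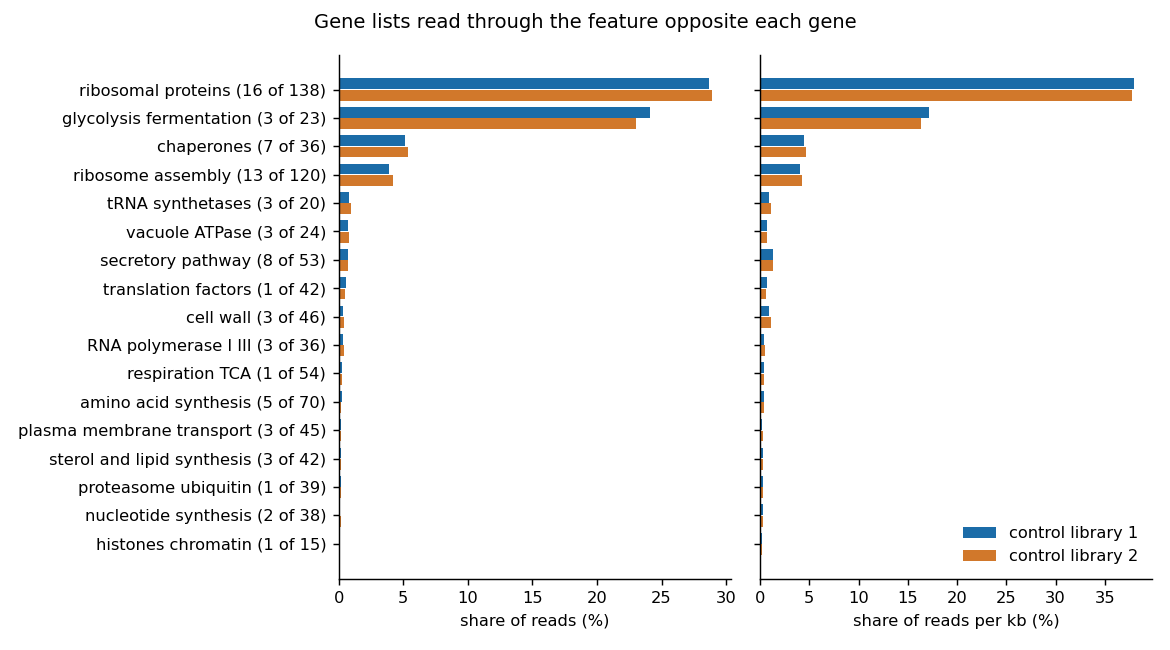
Share of reads (left) and of normalised reads per kb (right) outside the rDNA, in percent, taken by the features opposite the genes of each list, in control libraries 1 and 2; brackets give the genes with a feature of all genes in the list. Ribosomal proteins hold 28.7% and 28.9% and glycolysis 24.1% and 23.0% of reads, and no other list exceeds 5.34%.

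The reads were held by few features. In library 1 11 features and in library 2 12 features held 50% of the reads outside the rDNA, and 116 and 105 held 80%. The 20 features with the most reads took 61.8% and 61.6%. Among the 411 paired features whose gene also has an identifier in the files, the quartiles of the level were 234, 621 and 1666 normalised reads per kb, so the highest stood over 2 orders of magnitude above the median. The libraries placed the same 20 features highest. Across 1088 features with 10 or more reads in both, the log2 levels had a Pearson correlation of 0.99 and Spearman's rho of 0.98, a description of features that share libraries, lengths and strand, and 97.5% differed by less than 2-fold. Of 230 features with 100 or more reads in both, the widest differences were those of ARN2, a siderophore transporter, with 214 and 100 reads, SSA1, the transcription factor ABF1 with 116 and 187, SYO1, a carrier of ribosomal proteins, with 152 and 239, and the ribosomal RNA RDN25-2 with 126 and 190. Scaled to the reads outside the rDNA, their log2 ratios of library 1 to library 2 were 0.96, -0.88, -0.83, -0.80 and -0.73.

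The deposited TPM gave another order, because it divides by an effective length that becomes very small for short features. RPS2 came first by TPM, with 82532 and 73542, since its feature of 231 bases had an effective length of 15.0 bases, and CDC19 stood at rank 12 with 10623 and 8877 TPM. The second place by TPM fell to YLR264C-A, an annotated open reading frame of 117 bases with an effective length of 4.95 bases, at 35473 and 36370 TPM from 881 and 904 reads. It lies opposite no gene, 494 bases beyond the end of RPS28B, a ribosomal protein gene whose message is known for a long 3′ untranslated region. Whether its reads belong to that message was not tested. GAS1, CTS1 and HAC1, at features of 195, 135 and 102 bases, ranked 6, 10 and 13 by TPM but 25, 40 and 43 by normalised reads per kb. YPR002C-A, 198 bases long, ranked 15 by TPM with 336 and 391 reads. It lies opposite no gene at the place found, which is 1 of 2 possible in its window. The 852 features under 300 bases held 5.73% and 5.96% of reads but 48.8% and 49.8% of TPM, both counted outside the rDNA features. Those rDNA features held 42.4% and 46.5% of all deposited TPM. Of the 20 highest by TPM, 16 were also among the 20 highest by normalised reads per kb. The ribosomal protein list had 40.9% of TPM outside the rDNA features, while glycolysis had 6.51%.

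**Figure D3:**
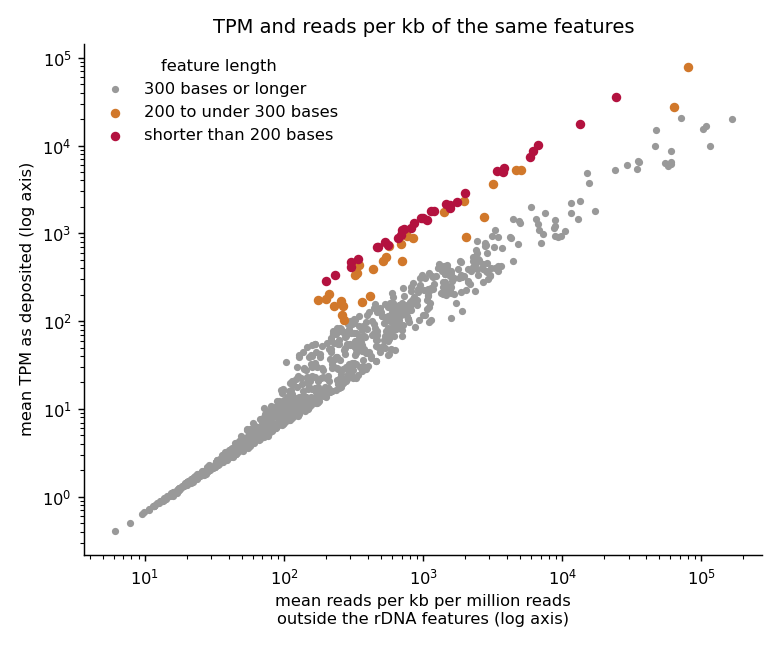
Mean deposited TPM against mean normalised reads per kb (both log axes) for the 1088 features with 10 or more reads in both control libraries, coloured by annotated length. Features shorter than 200 bases lie above longer ones of the same reads per kb.

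Side by side, 354 pairs of a feature and the gene opposite averaged 20 or more reads, both strands summed. The feature had the higher level in 335 of them, and the middle 50% of log2 ratios ran from 5.86 to 8.95 around a median of 7.53. Of the 354 pairs 12 are 6 loci listed once from each strand, both of whose open reading frames are annotated, so each of these counts once for and once against the feature. Without them the feature was higher in 329 pairs and the gene's own identifier in 13. At SSA1 the feature held 1592 and 2647 reads and the gene's own identifier 0 in both libraries. At NOP56 the gene's own identifier held 262 and 180 reads, more than any other of the highest genes named above. These 13 include IME4, the RNA methyltransferase of the meiotic programme, with 351 and 288 reads against 0 and 1 on RME2, the noncoding RNA annotated opposite it. RME2 is known to be transcribed in haploid cells. ZIP2, a meiotic chromosome protein, likewise had 99 and 66 reads and the noncoding RME3 opposite it 8 and 11. In both, the strand that held the reads was the opposite of the strand of the annotated noncoding RNA.

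**Figure D4:**
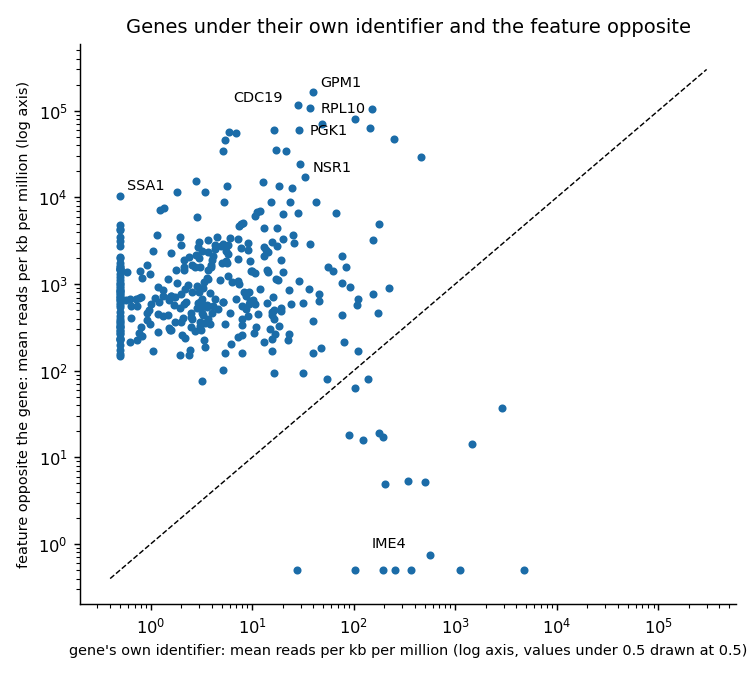
Mean level of the feature opposite a gene against that of the gene's own identifier, both in normalised reads per kb (log axes, values under 0.5 drawn at 0.5), for the 354 pairs that averaged 20 or more reads; the dashed line marks equal levels. Most points, 335, lie above the line, and IME4 is among the 19 below it.

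Where a gene had 2 opposite features, these gave a check of how far 1 feature stands for its gene. In 9 genes both features held 10 or more reads in each library, and their levels differed 1.20-fold at TRM5, a tRNA methyltransferase, to 3.97-fold at HSF1, the heat shock factor. The higher feature was the one nearer the 3′ end of the gene in 8 of the 9. At 1 of these 8, SPT6, the 2 features overlap each other and the quantifier divided reads between them. The features also differ in length and in reads, with 20 and 15 reads on the lower one at HSF1, and the part of position was not tested. The SDs given here do not include such differences within a gene.

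Codon choice, which the ranking did not use, differed between genes with high and low features. The share of preferred codons over the whole gene had a median of 77.8% (quartiles 71.9 and 79.5) in the 20 highest paired genes, 44.1% in the next 80, 38.4% in ranks 101 to 200, 36.9% in ranks 201 to 300 and 35.9% in the remaining 94. Over all 5988 nuclear coding genes the median was 38.3%. GPM1 had 79.6%, CDC19 77.5%, RPL10 80.9% and SSB1 79.1%, whereas RSO55 had 32.2% and MAL11, a maltose permease, 42.0%. RPL39 was highest of the 20 with 91.3% and NOP56 lowest with 56.8%. Because ribosomal protein genes define the preferred codons, the 20 highest without them were taken as well and had a median of 56.9%. Across 394 genes Spearman's rho between level and codon share was 0.55, or 0.50 without ribosomal proteins, and 0.07 between the codon share and the level under the same genes' own identifiers. These are descriptions across genes that share the same libraries, given with no test. RPL13B, with its feature in an intron, lies apart in the plot of codon use, at 79.2% preferred codons and 322 normalised reads per kb. RPL36A, at 71.1% and 592, and GPD1, at 66.5% and 582, lie apart too, and the feature of GPD1 is not in an intron.

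**Figure D5:**
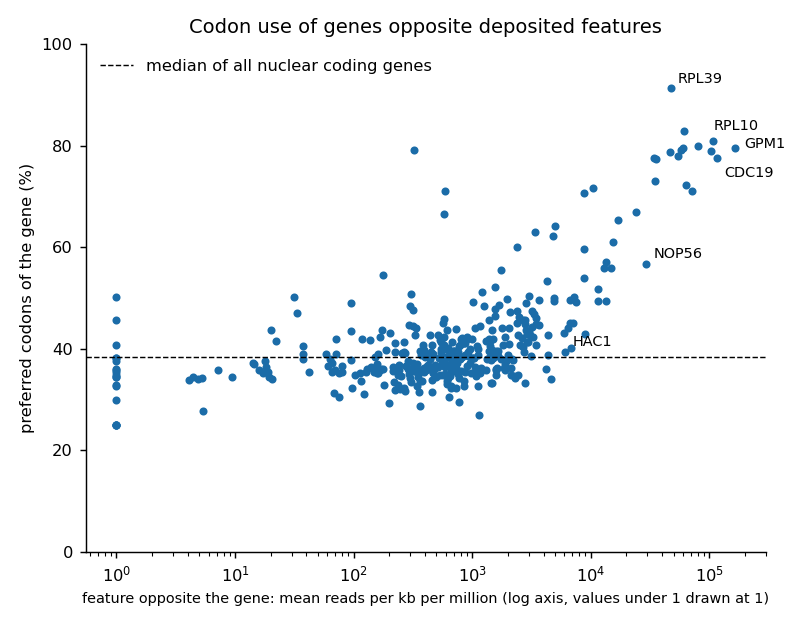
Share of preferred codons of a gene, in percent, against the level of the feature opposite it in normalised reads per kb (log axis, values under 1 drawn at 1) for 394 genes; the dashed line is the median of all nuclear coding genes, 38.3%. The 20 highest genes lie between 56.8% and 91.3%.

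Upstream sequence was searched for ACCCNNACA, a core of the known Rap1 site, in the 500 bases before each start codon on both strands. It was present in 8 of the 20 highest paired genes (40.0%), 5 of the next 80, 26 of all 394 paired genes (6.60%) and 326 of 5986 coding genes (5.45%). In the ribosomal protein list 53 of 136 genes held it and in the glycolysis list 4 of 23. The windows of 60 bases around 4 of the 8 are printed because they belong to the highest glycolytic and ribosomal protein genes, on the coding strand of R64 with the match in capitals, at chrXI:164746-164805 (GPM1, minus strand), chrIII:137248-137307 (PGK1, plus), chrVII:310677-310736 (RPL28, plus) and chrVII:277203-277262 (RPS2, plus).
GPM1: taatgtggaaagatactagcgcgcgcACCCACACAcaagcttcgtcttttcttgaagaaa
PGK1: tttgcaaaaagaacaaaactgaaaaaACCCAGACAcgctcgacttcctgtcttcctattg
RPL28: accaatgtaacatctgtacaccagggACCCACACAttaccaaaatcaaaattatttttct
RPS2: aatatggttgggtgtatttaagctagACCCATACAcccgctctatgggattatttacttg
The matches end 385 bases before the start codon in GPM1, 463 in PGK1, 255 in RPL28 and 379 in RPS2. A match describes the letters and is not a measured site of binding, and CDC19 and RPL10 held none of these letters in this window.

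Markers gave little to set against the labels. The genes with deletions have no opposite feature, and their own identifiers held 0 reads for LEU2, MET17 and URA3 in both libraries and 6 and 0 for HIS3. Own identifiers of highly ranked genes such as SSA1 were at 0 too, so these counts are no check of the strain. Of the markers of other states, those with an opposite feature were low: STE3, the receptor of mating type alpha, had 1 and 0 reads, and GPH1, glycogen phosphorylase of stationary cells, had 8 and 9. Markers of glucose repression, meiosis and mating type a had no opposite feature, so these states could not be read in the same way.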

How the data were processed

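Per the labels, BY4741 cells were grown in synthetic complete medium and RNA was made into libraries with a stranded kit that selects polyadenylated RNA. The authors deposited, for each library, estimated counts of reads per feature, which need not be whole, and TPM values; the columns are those salmon writes, per the file headers. STAR 2.7.3a, DESeq2 and build R64 come from the submitters' processing notes, and for the quantifier neither a version nor a strand setting is given in the sources used here. The deposited table holds counts divided by size factors (a signal, named as DESeq2-normalised per the labels). Its nonzero values for 6103 features were multiplied back by a factor for each library. In 100% of them this gave whole reads equal to the rounded estimated counts, within a small tolerance. The table served as an alternative. Columns of no sample of the series numbered 0.

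Reads were divided by annotated length in kb and scaled to 1000000 reads outside 5 rDNA features. Features not whole in either library, 174 and 150, held 5.09% and 6.21% of reads. Coordinates of 6169 features came from the R64 annotation and 656 from scanning the strand that the identifier names for reading frames with the same length, 485 of them the only such frame in the wide window; 15 had several places and 287 none. On 5667 annotated genes the search placed 5639 once and 5608 at the right start. Among the 1372 of these genes no longer than 700 bases, 1353 were placed once and 1326 at the right start. Paired features had a median length of 372 bases. Preferred codons and upstream sequence came from the R64 reference.

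Named genes were the 20 highest features by TPM and by reads per kb, the 3 highest genes of each list, the 5 highest features without a paired gene, the 5 widest differences between libraries, and marker genes with 3 or more reads. Other genes named were chosen after their values were seen. Among them are CPR6, the CCT genes, BUD23, SEC61, CAF20, LHP1, GND1, RSO55, MAL11, TRM5, HSF1, IME4, ZIP2, the deleted markers and markers with fewer reads. The members, the lists and the pairing rule were chosen with earlier results of these data known. No group was compared and no test was made. SDs are over 2 libraries and shares have Wilson 95% intervals. Summing of the shares was checked on reads simulated with counting error alone. That check covers neither strand nor placement nor pairing. Python 3.11.15, pandas 2.3.3, numpy 2.4.6, scipy 1.17.1, Biopython 1.88 and matplotlib 3.10.9 were used.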

Additional observations from a re-analysis of the deposited data

How the results depend on the processing

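Of 62 values recomputed under other settings, 39 moved by no more than the SD between the libraries (counts by no more than 1.5 times). The other 23 moved further. A share from 1 library alone always lies within that SD of the mean, so leaving out a library could not move it. TPM and reads per kb of effective length are nearly the same measure, and both were counted. The share under paired features, 79.1% as the mean of both libraries, became 80.4% with TPM and with effective length, 59.2% with the rDNA features kept, 82.1% with 10 or more reads required in both libraries, 78.7% with features of 300 bases or longer, 71.9% with at least 80% of the feature opposite and 82.8% with features opposite 1 or more coding genes. In the same order up to the length limit, the ribosomal protein share, 28.8%, became 40.9%, 21.6%, 29.97% and 26.6%, and the glycolysis share, 23.5%, became 6.51%, 17.6%, 24.5% and 25.01%. Per kb these shares were 37.9% and 16.7%, and per kb of overlap 37.1% and 16.2%. Spearman's rho of codon share and level, 0.546, was 0.503 without ribosomal proteins and 0.555 with TPM. With 1 library left out, the paired share ranged from 79.0% to 79.2%, ribosomal proteins from 28.7% to 28.9%, glycolysis from 23.0% to 24.1% and rho from 0.545 to 0.548. Ribosomal proteins exceeded glycolysis in all of these settings, as sums over 16 and 3 features. By the median feature the order was the other way, with 115198 normalised reads per kb for glycolysis and 46882 for ribosomal proteins. No paired analysis was possible because the results come from no test and 1 group alone is described. Depth limits features under 10 reads, most of those ranked, to presence or absence.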

Other observations

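Reads under genes' own identifiers formed a thin layer. Over 6007 coding identifiers the median level was 3.68 normalised reads per kb, 694 (11.6%) held 10 or more reads in both libraries and 1197 held none in either. They took 15.6% and 14.7% of reads outside the rDNA. Some identifiers of genes known to be silent in glucose medium stood above this layer, read on the strand of the identifier. Since reads of paired genes lay mostly on the opposite feature, these counts may not be transcripts of the genes named, which was not tested. NDT80, the meiotic transcription factor, held 116 and 86 reads, SNO1, of vitamin B6 synthesis in stationary cells, 68 and 72, and GAL10, of galactose use, 78 and 75. JEN1, the lactate carrier, held 75 and 77, HXT5, a hexose transporter, 49 and 41, ACS1, acetyl-CoA synthetase, 52 and 42, and ICL1 of the glyoxylate cycle 68 and 34. ADH2, the alcohol dehydrogenase of ethanol use, held 103 and 97.2, partly divided with its relatives. Of 12 glucose-repressed genes 9 had 10 or more reads in both libraries and the list's median was 57.8 normalised reads per kb. Among genes of mating type alpha, MFALPHA2 held 19 and 19 reads, SAG1 13 and 13, STE3 7 and 4 and MFALPHA1 0 in both. No gene of mating type a held more than 3. With own identifiers so thinly read, these counts are no check of the mating type. GPH1 held 28 and 26 under its own identifier, STE6 3 and 1, IME1 1 and 3, SPO11 11 and 7, DIT1 8 and 11, FBP1 20 and 11, PCK1 6 and 1, MLS1 30 and 11 and GAL1 16 and 27. The other stress markers held 2 or fewer. GAL7 and SUC2 held 0 in both libraries, and IME2 and SPS4 held 0 and 1.

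Non-coding features were few. RUF5-1 and RUF5-2, annotated opposite the metallothionein genes CUP1-1 and CUP1-2, held 2271 and 2088 and 2275 and 1918 reads, divided between identical copies and so uncertain singly. All 299 tRNA features together held 0 and 1 reads and 77 snoRNA features 122 and 105, in libraries selected for polyadenylated RNA. The 91 Ty element genes, whose reads are divided among copies, held 1173 and 1045. The features without a paired gene often lay near one: 13 of the 20 highest overlapped a coding gene on the other strand and 16 lay within 300 bases, against 2.69% and 43.1% of all 6363 such features. Among the 100 highest annotated coding features without a pair, 12 overlapped and 46 lay within 300 bases, against 1.04% and 42.7% of all 5957 of that kind.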
